A study of Mus musculus with 6 samples.

Results

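The genes described here build and run the mitotic spindle, the kinetochore and the cleavage furrow. The 56 members were a list of symbols, each read from the probe set with the highest mean level over the 6 arrays among those annotated with that symbol alone. All 56 were measured, of 19938 genes in all, and were sorted by role into 10 classes. The cells were bone marrow stromal cells, the adherent marrow cells that can become osteoblasts or adipocytes. They came from C57BL/6 mice aged 6 months, either wild type (WT) or knockout for the microRNA gene labelled 188 (KO). Both groups were grown in the same adipogenic induction medium, α-MEM with fetal calf serum at 10%, dexamethasone at 1 µM, insulin at 5 µg/ml and the phosphodiesterase inhibitor IBMX at 0.5 mM. Each genotype had 3 samples, each on an Affymetrix array of its own. The labels call the samples of a genotype biological replicates without saying that each came from a separate mouse, and the p-values reflect how far these 6 samples scatter. The labels leave out how the knockout was made, how many days the cells were induced and whether marrow was pooled. The arrays are called WT-1, WT-2, WT-3, KO-1, KO-2 and KO-3, after the labels' replicate numbers.

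In mitosis the duplicated chromosomes are compacted by condensin, attached through kinetochores to spindle microtubules and pulled apart once a checkpoint is satisfied. A contractile ring then divides the cell. Most of the genes involved are transcribed in G2 and M phase and are largely silent in cells that have left the cycle. In a culture their RNA therefore depends in part on the share of dividing cells, for which the labels give no measurement. Growth arrest, often after a few further divisions, accompanies the differentiation of adipocyte precursors in culture.

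Markers of the labelled cell type were read first. Of 15 stromal marker genes measured, 13 lay above a background level of 6.83, the 95th percentile of the mean log2 levels of 1027 olfactory receptor genes, and Lepr and Lum lay below it. Passing this level does not by itself tell cell types apart, since 4 of 8 B cell and 5 of 8 osteoclast markers also passed it. Of 12 macrophage markers 9 lay below background, among them Ptprc, Adgre1 and Csf1r, while Cd68 (11.04 in WT, 10.85 in KO), Fcgr1 (7.09 and 7.13) and Tyrobp (7.12 and 7.17) lay above it. Of 8 mature adipocyte markers 6 lay above background, among them Fabp4 (10.77 and 10.44) and Lpl (8.69 and 8.26), while the hormone genes Adipoq and Lep lay below it. The deleted gene gave little information: the Mir188 probe set read 7.22, 7.27 and 7.38 on the WT arrays and 7.22, 7.22 and 7.13 on the KO arrays, a difference of -0.10 (95% interval -0.22 to 0.02, limma adjusted p = 0.348). Whether that probe set lies inside the deletion is not given, so directions rest on the genotype labels.

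Mitotic genes were lower in KO in every class. Of the 56 genes, 46 fell, 10 did not pass the test and none rose (limma, Benjamini-Hochberg adjusted p under 0.05 over all 19938 genes). Among all genes tested, 3.97% were called lower and 3.34% higher, and among the 13090 genes above background 5.91% were called lower. No member differed upward even at an unadjusted p under 0.05. All 56 differences were below 0, with a median of -0.33 on the log2 scale, or 1.26-fold, beside a median of 0.00 over all genes. On 52 members all 3 KO arrays lay below all 3 WT arrays, which held for 13.5% of all genes and 19.3% of those above background. The differences were modest in size: 3 members exceeded 1.5-fold, and those called ranged from 1.16-fold to 1.71-fold. Even so, 18 members were among the 100 largest falls of the whole table, and 45 among the 500 largest. In a mixed culture, fewer dividing cells and less RNA per dividing cell cannot be told apart.

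**Figure D1:**
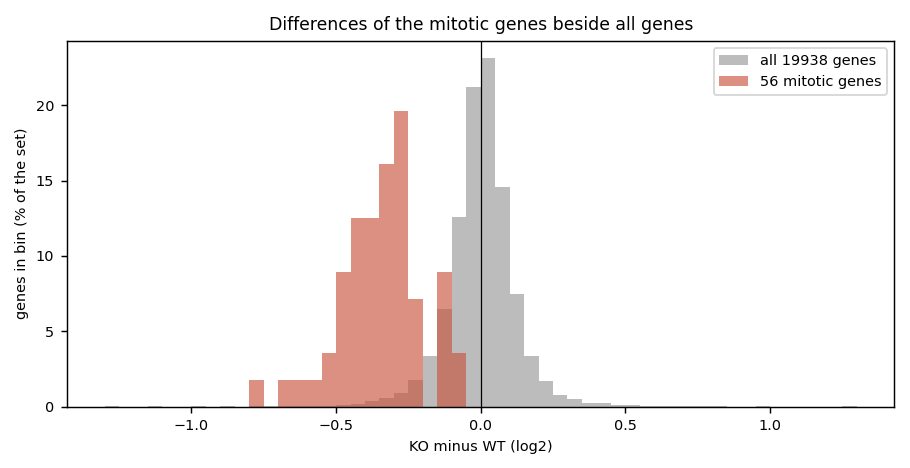
Share of genes (percent of each set) by KO minus WT on the log2 scale, in bins of equal width. Grey bars show all 19938 genes, centred near 0, and red bars the 56 mitotic genes, all of them below 0 with a median of -0.33.

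The number of calls depended on each array. Leaving out 1 array at a time gave 20 members called lower when WT-1 was dropped, 38 for WT-2, 10 for WT-3, 28 for KO-1, 27 for KO-2 and 22 for KO-3. In the same order the shares of all genes called lower were 1.11%, 2.63%, 0.401%, 2.17%, 1.98% and 1.55%. All 56 differences stayed below 0 in each of these 6 fits, and the median lay between -0.36 and -0.31. In all 6 fits 10 members passed, namely Mki67, Top2a, Nusap1, Aurkb, Ndc80, Cenpa, Kif20a, Ect2, Prc1 and Smc2. A fit with the replicate number as a block called 1 member lower, Smc2, beside 0.11% of all genes. Mki67 had a limma adjusted p of 0.0506 in that fit, which has fewer residual degrees of freedom. The labels do not say whether the replicate numbers pair the samples.

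The members also varied together within a genotype. After each gene was centred on its own mean over 6 arrays, the median of the members was 0.22, 0.11 and 0.18 on WT-1, WT-2 and WT-3, and -0.20, -0.14 and -0.14 on KO-1, KO-2 and KO-3. WT-1 was thus the highest array and KO-1 the lowest. WT-1 gave the highest of the 3 WT values for 39 of 56 members, against 36.8% of all genes, and WT-2 the lowest for 38, against 32.5%. KO-1 gave the lowest of the 3 KO values for 34 members, against 32.6% of all genes. The 2 groups stayed apart, with a gap from 0.11 to -0.14 between the nearest arrays.

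**Figure D2:**
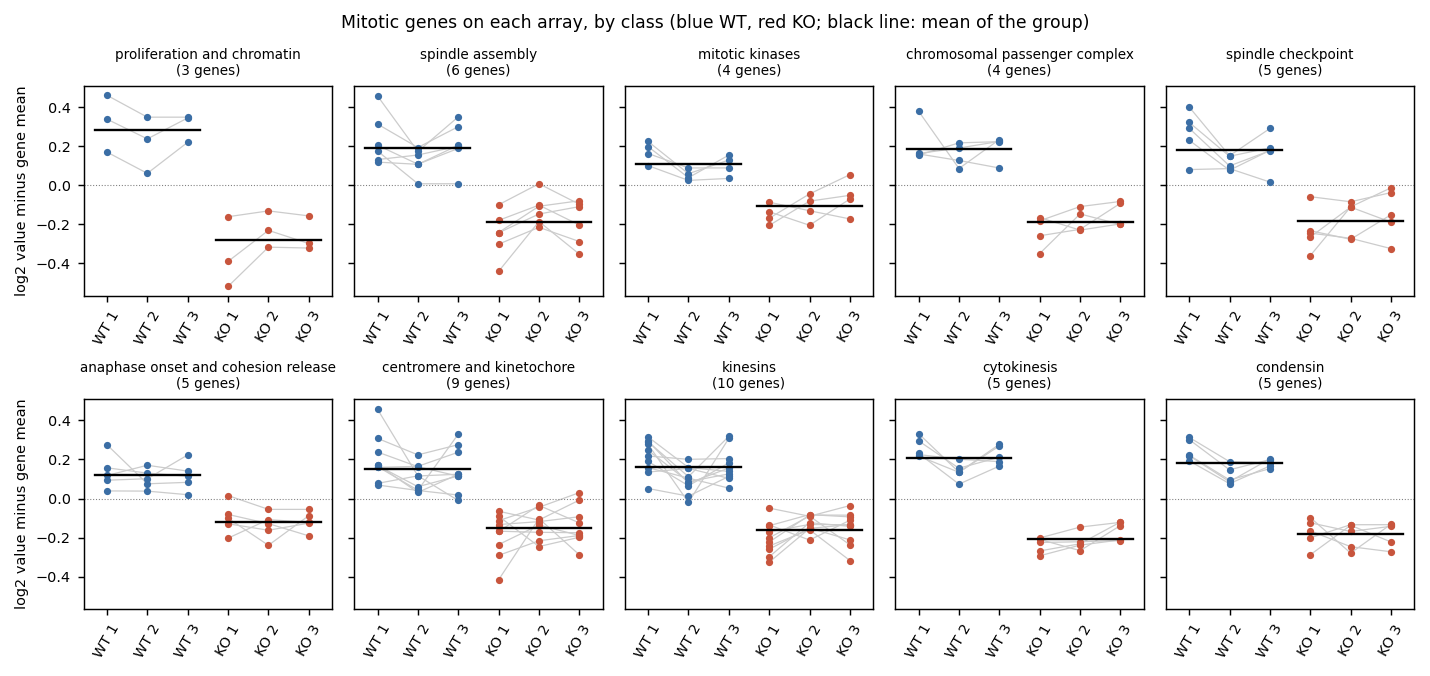
Log2 value of each mitotic gene minus its own mean over 6 arrays (vertical axis), by array (horizontal axis), with 1 panel for each of the 10 classes. Points are genes, grey lines join a gene's values within a genotype and black lines are group means; the WT mean (blue points) lies above the KO mean (red points) in every panel, by most for Mki67, Top2a and Melk.

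Mki67 had the largest difference of the 56. It encodes Ki-67, which coats mitotic chromosomes and is the standard marker of cycling cells. Its level was 9.69, 9.58 and 9.58 on the WT arrays and 8.71, 8.92 and 8.91 on the KO arrays. The groups were far apart, and the gap between them was wider than the spread within either. The fall was -0.77 (SE 0.07, 95% interval -0.93 to -0.62, limma adjusted p = 0.00305), or 1.71-fold, and was rank 6 among all genes by size of fall. Top2a, the topoisomerase that untangles sister chromatids, fell by 0.61 from 10.34 ± 0.06 to 9.73 ± 0.08 (SD, n = 3 arrays each; limma adjusted p = 0.00305). The other Top2a probe set, at a mean of 3.26 in WT and 3.27 in KO, lay far below background and showed no such gap; the mean of both probe sets differed by -0.30 (limma adjusted p = 0.143). Melk, a kinase of G2 and M phase, fell by 0.30 (limma adjusted p = 0.0145), a call that held only without WT-2 among the fits without 1 array (adjusted p = 0.0198 there, and 0.0514 to 0.0713 otherwise).

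The promoters of these genes are shown because genes of G2 and M phase are known to be controlled together through 2 short elements: the CHR (cell cycle genes homology region), read by the DREAM and MuvB complexes, and the CCAAT box, read by NF-Y. The 4 genes are those with the largest falls among the members whose RefSeq window held either element. The 250 bases before the transcription start are given 5′ to 3′ on the gene's strand from GRCm38.p6, with CHR letters (TTTGAA or TTTAAA) and CCAAT letters on either strand in capitals. The last base printed lies just before the start.
Mki67, chr7:135716380-135716629, minus strand: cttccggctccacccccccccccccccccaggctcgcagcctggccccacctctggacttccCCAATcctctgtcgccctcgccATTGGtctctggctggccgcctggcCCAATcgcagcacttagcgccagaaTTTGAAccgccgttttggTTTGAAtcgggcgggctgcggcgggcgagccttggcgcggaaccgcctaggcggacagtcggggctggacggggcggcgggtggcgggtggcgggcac
Hmmr, chr11:40733438-40733687, minus strand: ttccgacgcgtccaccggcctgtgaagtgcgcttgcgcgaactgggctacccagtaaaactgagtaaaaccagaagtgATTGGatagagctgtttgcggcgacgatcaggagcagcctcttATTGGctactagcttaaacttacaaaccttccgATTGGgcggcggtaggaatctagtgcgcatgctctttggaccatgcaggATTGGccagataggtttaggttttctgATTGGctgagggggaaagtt
Top2a, chr11:99024190-99024439, minus strand: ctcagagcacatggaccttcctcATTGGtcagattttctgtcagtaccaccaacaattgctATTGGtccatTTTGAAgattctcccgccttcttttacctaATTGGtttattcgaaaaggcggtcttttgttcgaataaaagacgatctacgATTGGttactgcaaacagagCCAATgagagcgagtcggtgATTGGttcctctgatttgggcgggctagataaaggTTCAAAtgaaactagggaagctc
Bub1, chr2:127831860-127832109, minus strand: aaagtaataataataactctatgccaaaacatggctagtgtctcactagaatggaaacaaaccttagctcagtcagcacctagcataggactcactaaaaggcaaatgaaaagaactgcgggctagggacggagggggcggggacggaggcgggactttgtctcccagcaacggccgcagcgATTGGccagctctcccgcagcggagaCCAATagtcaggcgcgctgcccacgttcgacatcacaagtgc
In Mki67 the 2 CHR matches begin 116 and 98 bases before the start, downstream of 3 CCAAT boxes at 188, 166 and 141. Top2a held 6 CCAAT boxes, and its nearer CHR match, on the other strand as TTCAAA, begins 23 bases before the start. Hmmr held 5 CCAAT boxes before the start, all written as ATTGG, and its CHR match begins at base 9 after the start, outside the printed stretch. Bub1 held 2 CCAAT boxes and no CHR match.

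RefSeq windows, from 250 bases before to 50 after the start, were found for 50 of the 56 members; Aurkb, Incenp, Kif20a, Smc4, Spc24 and Tpx2 are named only. A gene with several windows was counted once if any of them held the letters, both strands were read, and matches that overlapped were counted. The CHR letters were found in 39 of 50 members (78%), against 27% of 15563 genes on the arrays with a window and 30.6% of all 27025 genes with one. CCAAT was found in 35 members (70%), against 41.7% and 41.1%. At least 2 CCAAT boxes occurred in 21 members (42%), against 14.3% and 13.3%, and both elements in 31 members (62%), against 10.9% and 12.2%. Members of either outcome held the letters: CHR was found in 32 of 41 members called lower and in 7 of 9 members that did not pass the test. CCAAT was found in 27 of those 41 and in 8 of those 9. A match is a run of letters and not a measured binding site.

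Spindle assembly genes fell in 5 of 6 cases. Hmmr, a microtubule-binding protein of the spindle poles, read 8.51, 8.22 and 8.40 on the WT arrays and 7.61, 7.87 and 7.70 on the KO arrays. Every KO value was below every WT value, though both groups spread widely. The fall of -0.65 (SE 0.09, limma adjusted p = 0.0104), or 1.57-fold, missed the threshold without WT-1, WT-3 or KO-3 (adjusted p = 0.0516 to 0.0705). Nusap1, which bundles microtubules near chromosomes, fell by 0.54 and Aspm, a spindle pole protein that lies at the minus ends of microtubules, by 0.32. Ckap2, another microtubule-associated protein, fell by 0.33, and Tpx2, which activates Aurora A on the spindle, by 0.29. The calls of the last 3 were lost without WT-3 (adjusted p = 0.0568, 0.0730 and 0.120, limma), that of Ckap2 also without WT-1 (adjusted p = 0.0576), and that of Tpx2 without any of the 6 arrays (adjusted p = 0.0522 to 0.120). Ckap2l, a relative of Ckap2, read 8.81, 8.64 and 8.64 in WT and 8.54, 8.64 and 8.54 in KO, so the groups touched, and differed by -0.13 (95% interval -0.27 to 0.01, limma adjusted p = 0.291).

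The class of mitotic kinases held Plk1, Aurka, Plk4 and Nek2, while the kinases Aurkb, Melk, Bub1 and Ttk were placed in other classes. This class had the smallest median in size, -0.24, with 3 of 4 genes lower. Plk1, which drives centrosome maturation, spindle assembly and mitotic exit, read 10.01, 9.85 and 9.92 in WT and 9.65, 9.58 and 9.72 in KO. The 3 KO arrays were the 3 lowest. Its fall of -0.27 (SE 0.06) had a limma adjusted p of 0.0337. Aurka, the Aurora kinase of the spindle poles, fell by 0.26 and Plk4, the kinase that starts centriole duplication, by 0.23 (limma adjusted p = 0.0290 and 0.0442). These calls were close to the threshold: those of Plk1 and Aurka held without WT-2 alone (adjusted p = 0.0653 to 0.135 without any other array), and that of Plk4 in none of the fits without 1 array (adjusted p = 0.0753 to 0.146). Nek2, which splits the centrosome pair, read 8.82, 8.74 and 8.75 in WT and 8.55, 8.67 and 8.77 in KO, with KO-3 inside the WT range, and differed by -0.11 (95% interval -0.25 to 0.04, limma adjusted p = 0.395).

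All 4 subunits of the chromosomal passenger complex fell. This complex corrects faulty attachments at the centromere and then moves to the spindle midzone. Cdca8 (borealin), which targets it to the centromere, read 9.32, 9.03 and 9.17 in WT and 8.59, 8.79 and 8.74 in KO, a fall of -0.47 (SE 0.09, limma adjusted p = 0.0240). Aurkb, its kinase, read 9.92, 9.98 and 9.99 in WT and 9.60, 9.53 and 9.57 in KO. Its spread was the smaller of the pair, and its fall of -0.40 (SE 0.04, limma adjusted p = 0.00358) passed in all 6 fits without 1 array. Birc5 (survivin) fell by 0.39 and the scaffold Incenp by 0.25 (limma adjusted p = 0.00877 and 0.0156). The call of Birc5 was lost without WT-3 (adjusted p = 0.0632), and that of Incenp without any of the 3 WT arrays or KO-2 (adjusted p = 0.0510 to 0.0681). That of Cdca8 held without WT-2 alone (adjusted p = 0.0616 to 0.115 without any other array).

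In the spindle checkpoint, which holds anaphase until all kinetochores are attached, 3 of 5 genes fell. Bub1, a kinase that recruits the other checkpoint proteins, read 9.14, 8.89 and 9.03 in WT and 8.50, 8.47 and 8.42 in KO. The KO arrays were tightly grouped below all WT arrays, and the fall was -0.56 (SE 0.07, limma adjusted p = 0.00680). Bub1b (BubR1) and Mad2l1 (MAD2), which bind and block CDC20, fell by 0.44 and 0.38 (limma adjusted p = 0.00846 and 0.0170). The calls of Bub1 and Bub1b were lost without WT-3 (adjusted p = 0.0537 and 0.0568), and that of Mad2l1 without WT-1 or WT-3 or KO-1 or KO-3 (adjusted p = 0.0595 to 0.0890). Ttk (MPS1), the kinase at the head of the checkpoint, differed by -0.32 with a wide error (SE 0.09, limma adjusted p = 0.0919), since its KO values ran from 7.08 to 7.43. Bub3, the binding partner of Bub1 and Bub1b, read 10.16, 10.16 and 10.10 in WT and 10.02, 10.00 and 10.04 in KO. The Bub3 groups did not overlap, but the difference was -0.12 (95% interval -0.20 to -0.04, limma adjusted p = 0.0984).

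Of 5 genes of anaphase onset, 4 fell, by nearly equal amounts. Sgol1 (shugoshin), which guards centromeric cohesin, read 8.75, 8.55 and 8.56 in WT and 8.27, 8.36 and 8.35 in KO, a fall of -0.29 (SE 0.06, limma adjusted p = 0.0409). Cdc20, the activator of the anaphase promoting complex, fell by 0.29, the protease separase, Espl1, by 0.28 and Ube2c, the ubiquitin-conjugating enzyme of that complex, by 0.27 (limma adjusted p = 0.0189, 0.0152 and 0.0119). Pttg1 (securin), the inhibitor of separase, read 9.80, 9.80 and 9.78 in WT and 9.77, 9.70 and 9.70 in KO. Its KO arrays lay just below its WT arrays, and it had the smallest difference of the 56 members, -0.06 (95% interval -0.15 to 0.02, limma adjusted p = 0.365). The call of Sgol1 was lost without any of the 6 arrays (adjusted p = 0.0658 to 0.127), that of Cdc20 held without KO-2 alone (adjusted p = 0.0502 to 0.0954 without any other), that of Espl1 held without WT-1 or WT-2 (adjusted p = 0.0536 to 0.0593 without the others), and that of Ube2c was lost without WT-1 or WT-3 (adjusted p = 0.0554 and 0.0678).

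Of 9 centromere and kinetochore genes 6 fell, and the 4 subunits of the NDC80 complex, the main microtubule anchor, were among the 9. Spc25 read 8.33, 8.24 and 8.30 in WT and 7.60, 7.92 and 7.73 in KO, a fall of -0.54 (SE 0.08, limma adjusted p = 0.0118). Ndc80 fell by 0.37 and Nuf2 by 0.36 (limma adjusted p = 0.00595 and 0.0439). Spc24, the direct partner of Spc25, read 7.86, 7.90 and 7.78 in WT and 7.72, 7.68 and 7.78 in KO, where KO-3 reached the lowest WT array, and differed by -0.12 (95% interval -0.23 to -0.01, limma adjusted p = 0.196). Whether Spc24 and Spc25 differ in their response was not tested.

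The centromeric histone Cenpa fell by 0.34, from 9.63 ± 0.06 to 9.29 ± 0.0041 (SD, n = 3 arrays each; limma adjusted p = 0.00680). Cenpk, of the constitutive centromere network, fell by 0.46 and Cenpf, a large protein of the outer kinetochore, by 0.23 (limma adjusted p = 0.0342 and 0.0180). Cenpk was the one member whose mean over all 6 arrays lay below background, with 7.04 in WT and 6.57 in KO. The kinetochore motor Cenpe differed by -0.22 (limma adjusted p = 0.0560). Cenpn, which reads the centromeric nucleosome, read 8.40, 8.37 and 8.35 in WT and 8.22, 8.29 and 8.36 in KO, overlapping, and differed by -0.09 (95% interval -0.19 to 0.02, limma adjusted p = 0.350). Of the 6 calls in this class, those of Ndc80 and Cenpa held in all fits without 1 array. That of Spc25 was lost without WT-1 or WT-3 or KO-3 (adjusted p = 0.0588 to 0.0734). Those of Nuf2 and Cenpf held without WT-2 alone (adjusted p = 0.0807 to 0.145 and 0.0575 to 0.0939 without any other), and that of Cenpk without WT-1 alone (adjusted p = 0.0547 to 0.120 without any other).

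Among the 10 mitotic kinesins, microtubule motors that arrange chromosomes and spindle poles, 8 fell and on all 10 the KO arrays lay below the WT arrays. Kif18a, which shortens kinetochore microtubules and centres chromosomes, read 8.15, 7.97 and 8.18 in WT and 7.62, 7.70 and 7.54 in KO, a fall of -0.48 (SE 0.07, limma adjusted p = 0.0107). Kif20a, a motor of the midzone, read 8.98, 8.96 and 8.97 in WT and 8.50, 8.61 and 8.55 in KO, a fall of -0.42 with a small error (SE 0.04, limma adjusted p = 0.00351). Kif20a was the one kinesin whose call held in all 6 fits without 1 array. Kif20b fell by 0.41 to a KO mean of 6.85, close to background, and Kif11, the motor that pushes the poles apart, by 0.35. Kif2c, a microtubule depolymerase at centromeres, fell by 0.31, Kif23, part of the centralspindlin complex, by 0.29, the chromosome arm motor Kif22 by 0.26 and Kif15, which can support bipolar spindles beside Kif11, by 0.21 to a KO mean of 6.75, under background (limma adjusted p = 0.0126 to 0.0260 for these 6).

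Kif4, a chromosome-bound motor, differed by -0.38 but with a wide error (SE 0.10, limma adjusted p = 0.0672), its WT values being 8.34, 8.05 and 8.37; without WT-2 the adjusted p was 0.0281. Kif14, which acts in cytokinesis, read 7.01, 6.97 and 7.07 in WT and 6.91, 6.86 and 6.92 in KO, close to background, and differed by -0.12 (95% interval -0.21 to -0.03, limma adjusted p = 0.138). The other Kif14 probe set, at 4.45 in WT and 4.44 in KO, lay below background. The calls of Kif20b and Kif15 were lost without any of the 6 arrays (adjusted p = 0.0524 to 0.0762 and 0.0641 to 0.0800). Those of Kif18a and Kif23 were lost without WT-1 or WT-3 or KO-3 (adjusted p = 0.0516 to 0.0676 and 0.0541 to 0.0765). Those of Kif11 and Kif2c held without WT-2 alone (adjusted p = 0.0507 to 0.112 and 0.0550 to 0.0887 without any other), and that of Kif22 without KO-1 alone (adjusted p = 0.0526 to 0.0930 without any other).

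All 5 cytokinesis genes fell, with a class median of -0.41. Anln (anillin), which organises the contractile ring, read 9.61, 9.41 and 9.55 in WT and 8.98, 9.04 and 9.06 in KO, a fall of -0.50 (SE 0.06, limma adjusted p = 0.00663). Ect2, the exchange factor that activates RhoA at the furrow, read 9.68, 9.54 and 9.60 in WT and 9.16, 9.17 and 9.17 in KO. Its KO arrays were almost equal, and it fell by 0.44 (SE 0.04, limma adjusted p = 0.00397). Racgap1, the partner of Kif23 in centralspindlin, fell by 0.41, and so did Prc1, which crosslinks midzone microtubules, while the abscission factor Cep55 fell by 0.31 (limma adjusted p = 0.00869, 0.00445 and 0.0145). The calls of Ect2 and Prc1 held in all 6 fits without 1 array. Those of Anln and Racgap1 were lost without WT-3 (adjusted p = 0.0537 and 0.0582), that of Racgap1 also without WT-1 (adjusted p = 0.0512), and that of Cep55 held without WT-2 alone (adjusted p = 0.0528 to 0.0853 without any other).

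All 5 condensin genes fell as well. Smc2, an ATPase subunit shared by both condensins, read 8.68, 8.56 and 8.55 in WT and 8.20, 8.12 and 8.10 in KO, a fall of -0.46 (SE 0.05, limma adjusted p = 0.00585). Its partner Smc4 read 10.36, 10.20 and 10.26 in WT and 9.77, 9.92 and 9.83 in KO, a fall of -0.43 (SE 0.06, limma adjusted p = 0.00869). Neither gene's groups overlapped. Of the 3 subunits particular to condensin I, Ncapg fell by 0.34, Ncaph by 0.31 and Ncapd2 by 0.29 (limma adjusted p = 0.0226, 0.0107 and 0.0108). Without WT-3 only Smc2 passed among the 5 (adjusted p = 0.0408, against 0.0586 to 0.116 for the others), and Ncapg also missed without WT-1, KO-2 or KO-3 (adjusted p = 0.0540 to 0.0997).

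**Figure D3:**
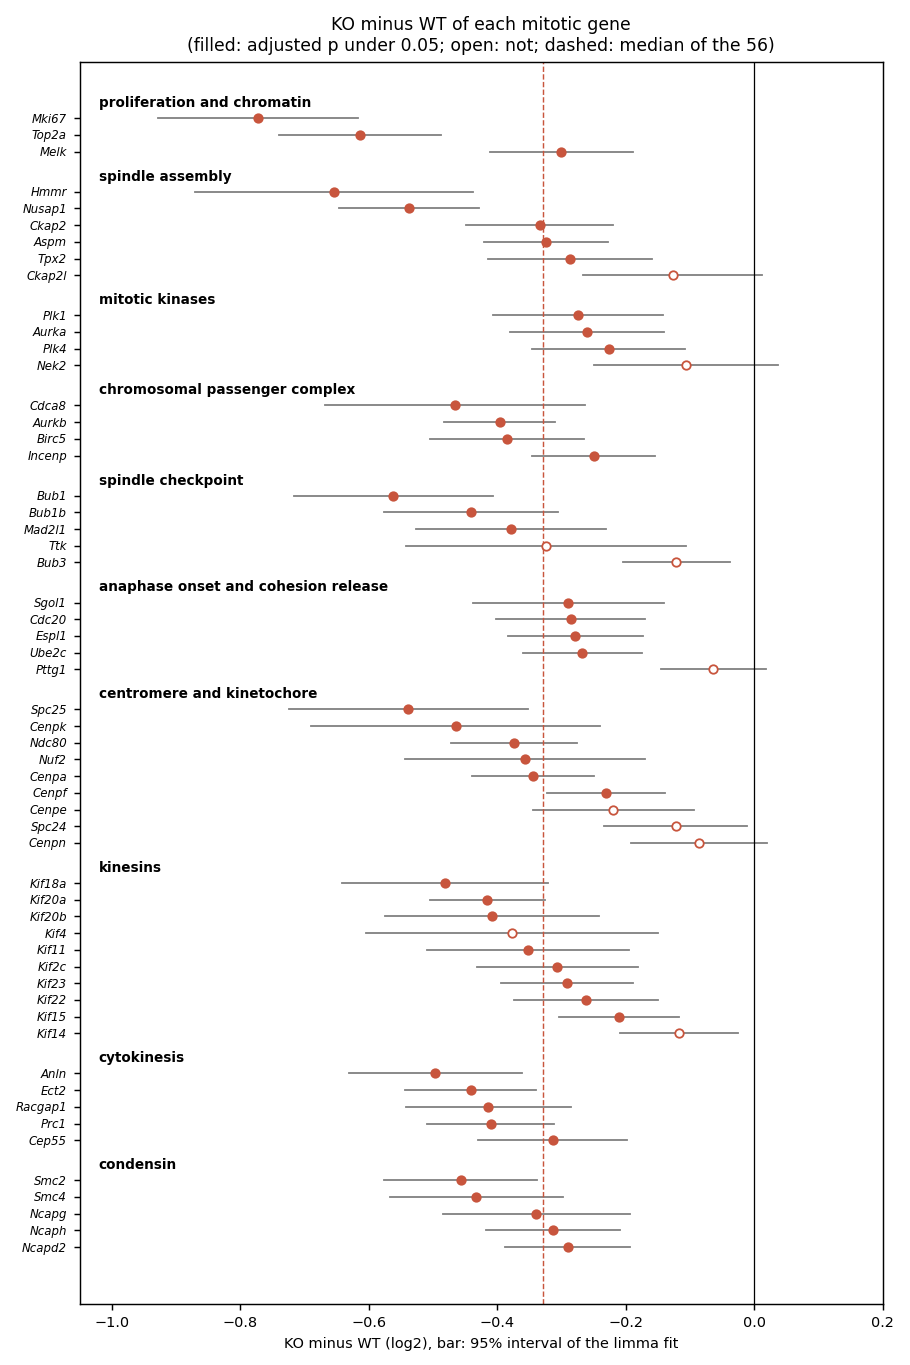
KO minus WT on the log2 scale (horizontal axis) for each of the 56 mitotic genes, grouped by class, with the 95% interval of the limma fit as a bar. Filled points passed an adjusted p under 0.05 and open points did not; all 56 points lie left of 0, from -0.77 for Mki67 to -0.06 for Pttg1, and the dashed line is their median, -0.33.

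Further lists held other genes of the mitotic programme, and their medians were closer to 0. Members and lists were chosen with earlier results of these data known, and whether the lists differ from the members was not tested. Of 13 genes of mitotic entry measured, 8 fell and none rose, with a median of -0.23. Cks1b, a binding subunit of cyclin-dependent kinases, fell by 0.63 (SE 0.03, limma adjusted p = 0.000978) and cyclin A2, Ccna2, by 0.48 (SE 0.04, limma adjusted p = 0.00349), and both held in all 6 fits without 1 array. Of 29 other spindle, centrosome and cytokinesis genes 9 fell and none rose, with a median of -0.15. The kinase gene Pbk and the spindle protein gene Spag5 fell by 0.50 and 0.39 (limma adjusted p = 0.00531 and 0.00533), also in all 6 fits.

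Of 29 further kinetochore and centromere genes 6 fell and 1 rose, with a median of -0.20. Cenpl, of the constitutive centromere network, fell by 0.26 at a level below background and Kntc1, of the complex that brings dynein to kinetochores, by 0.30 (limma adjusted p = 0.0135 and 0.0139). Zwint, a kinetochore protein that binds KNL1, went the other way. It read 10.48, 10.45 and 10.44 in WT and 10.80, 10.74 and 10.74 in KO, a rise of 0.30 (SE 0.03, limma adjusted p = 0.00663). The Zwint groups were well separated, and the call was lost without WT-3 (adjusted p = 0.0537). Those of Cenpl and Kntc1 were lost without WT-3, KO-1 or KO-3, and that of Cenpl also without WT-1 (adjusted p up to 0.0820 and 0.0798).

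Of 18 transcription factors and DREAM subunits that govern mitotic genes 5 fell and none rose, with a median of -0.07. E2f5, a repressor E2F, fell by 0.43 and Foxm1, the activator of G2 and M phase genes, by 0.31 (limma adjusted p = 0.0158 and 0.0162). The call of E2f5 was lost without WT-1 or WT-3 or KO-3, and that of Foxm1 without any WT array or KO-1 (adjusted p up to 0.0914 and 0.0767). In condensin II and other SMC genes 2 of 5 fell, Ncapg2 by 0.45 and Ncapd3 by 0.20 (limma adjusted p = 0.0131 and 0.0413). Ncapg2 was lost without WT-1 or WT-3 and Ncapd3 without any array (adjusted p up to 0.0756 and 0.151). Among 14 cohesin genes 4 fell and 1 rose: Sgo2a, the second shugoshin, fell by 0.27 and the acetyltransferase Esco2 by 0.29, while the loader subunit Mau2 rose by 0.27 (limma adjusted p = 0.0102, 0.0195 and 0.0110). All 3 were lost without WT-3 (adjusted p up to 0.0666, 0.0876 and 0.0570), Esco2 held without WT-2 alone, and Mau2 was also lost without WT-1 or KO-3.

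A list of the anaphase promoting complex held core subunits, the coactivator Fzr1 and the ubiquitin-conjugating enzyme Ube2s. All 14 differences were below 0, with a median of -0.07. On 5 of the 14 genes the KO arrays lay below the WT arrays, which held for 19.3% of genes above background. Of the 14, 5 had an unadjusted p under 0.05 (limma). Among the 13090 genes above background, 2105 were lower in KO at that level. The adjusted test was passed by 1 (7.14%, against 5.91% called lower among genes above background), Ube2s, which fell by 0.22 (limma adjusted p = 0.0129). It was lost without WT-1 or WT-3 or KO-3 (adjusted p up to 0.0541). Kinesins that carry cargo in interphase serve as a contrast within the same protein family. Of 24 measured, 1 (4.17%) fell and none rose, beside 3.97% of all genes called lower. The median was 0.00 and the range ran from -0.15 to 0.09. The 1 that fell was Kif1b, by 0.15 (limma adjusted p = 0.0441), lost without any of the 6 arrays (adjusted p = 0.0631 to 0.163). Of 16 meiosis genes, 3 of them above background, 0 passed the test (limma) and 0 had an unadjusted p under 0.05, with a median of 0.02.

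Genes of DNA replication and entry into S phase stood between these. Of 32 measured, 10 fell and 1 rose, with a median of -0.18. The polymerase gene Pole fell by 0.32 in all 6 fits without 1 array, and Pola1 by 0.39 (limma adjusted p = 0.00595 and 0.00692). Chaf1b, a chromatin assembly factor subunit, rose by 0.18 (limma adjusted p = 0.0295). Pola1 was lost without WT-3 (adjusted p = 0.0537), and Chaf1b held without KO-1 alone (adjusted p up to 0.129). Whether replication genes and mitotic genes differ in their response was not tested.

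**Figure D4:**
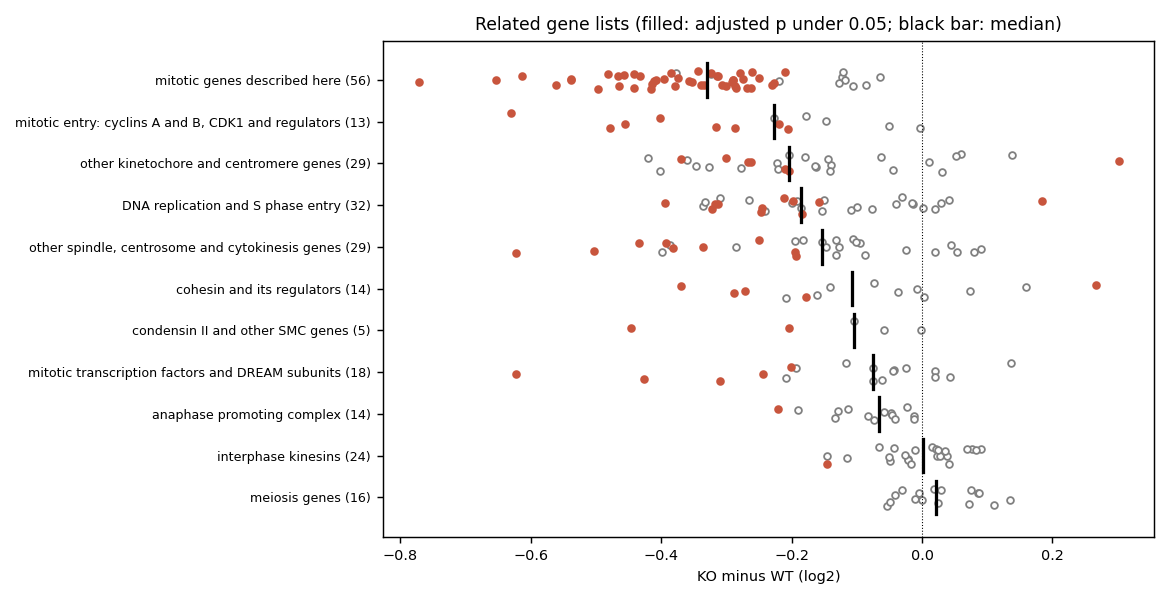
KO minus WT on the log2 scale (horizontal axis) of the 56 mitotic genes and of 10 related lists (rows, with the number measured). Filled points passed an adjusted p under 0.05, open points did not, and black bars are medians, which run from -0.33 for the mitotic genes to 0.00 for interphase kinesins and 0.02 for meiosis genes. Members and lists were chosen with earlier results of these data known.

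Marker genes of other cells were read beside these results. Macrophage markers gave a summed log2 level of 79.0 to 80.1 in WT and 79.5 to 80.1 in KO over 12 genes, 3 of them above background, and 1, Cd68, fell by 0.19 (limma adjusted p = 0.0153; up to 0.0715 without WT-1 or WT-3 or KO-3). Neutrophil and precursor markers summed to 63.8 to 65.1 and 64.4 to 65.1 over 10 genes, 3 above background, and 1, Prtn3, rose by 0.20 (limma adjusted p = 0.0333; up to 0.131 without any array but KO-1, the one fit of the 6 in which it held). Erythroid markers summed to 35.2 to 36.1 and 35.8 to 36.0 over 5 genes, 3 above background and none called. The groups overlapped for each of these lists. They also overlapped for B cell markers (8 genes, 4 above background, none called), T and NK cell markers (8, 2 and none), osteoclast markers (8, 5 and 2 higher) and endothelial markers (8, 5 and 1 lower). The 2 osteoclast calls held in none of the 6 fits without 1 array, and the endothelial call did not hold in all 6. Among all genes 3.97% were called lower and 3.34% higher. The sums of mature adipocyte markers did not overlap, at 59.7 to 60.2 in WT and 59.2 on each KO array over 8 genes, 6 above background. Of the 8 differences 5 were below 0, with a median of -0.04 and a highest value of 0.13. The 2 genes called were Lpl, which fell by 0.42, and Fabp4, by 0.33 (limma adjusted p = 0.00964 and 0.0186). Lpl missed the threshold without WT-3 or KO-3 and Fabp4 without WT-1 or WT-3 or KO-1 or KO-3 (adjusted p up to 0.0537 and 0.101). Stromal markers did not overlap either, at 138.34 to 138.68 in WT and 137.56 to 138.25 in KO over 15 genes. Of these, 4 fell and 3 rose, with a median difference of -0.01. The falls were in Col3a1, Col1a2, Nt5e and Col1a1, by 0.35, 0.30, 0.28 and 0.28 (limma adjusted p = 0.00439 to 0.0152). Dcn, Pdgfra and Pdgfrb rose by 0.28, 0.26 and 0.14 (limma adjusted p = 0.00663 to 0.0481). Only the calls of Col3a1 and Col1a2 held in all 6 fits without 1 array. Each of those 2 genes had the same reading on all 3 WT arrays. The part of these lists in the fall of the mitotic genes was not tested.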

How the data were processed

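The deposited table holds log2 levels per probe set, which the authors obtained by RMA (robust multi-array average, which corrects background, quantile-normalizes and summarizes probes). RMA, Affymetrix Expression Console and Partek are named, per the submitters' processing notes. Of 35556 probe sets, 21789 had 1 gene symbol, 1621 several and 12146 none; 21698 were matched by gene ID to the GRCm38.p6 gene table, leaving 19938 genes. KO and WT (3 arrays each) were compared with limma 3.58.1 in R 4.3.3 (lmFit and eBayes), adjusted over all genes by Benjamini-Hochberg; the code was tested on simulated data. Their number limits the precision. Alternatives were a second quantile normalization, cyclic loess, array weights, a variance trend with robust eBayes, a background filter, averaged probe sets, the replicate number as a block, and each array left out.

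The members and lists were chosen with earlier results of these data known. Per-array values are given for Mki67, for the member with the largest difference in each class and for the member missing the threshold with the smallest one; of each pathway list, up to 2 genes with the smallest p in each direction are named. Other per-array values (Aurkb, Kif20a, Kif4, Ect2, Smc4, Spc24, Zwint), and the marker genes Cd68, Fcgr1, Tyrobp, Lep, Lpl, Fabp4, Prtn3 and the called stromal markers, were chosen after their values were seen. Promoter windows are from RefSeq.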

Additional observations from a re-analysis of the deposited data

How the results depend on the processing

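All 56 differences (55 where only genes above background were tested) stayed below 0 in every alternative, no member was called higher in any, and the members' median ran from -0.36 to -0.31. Members called lower, 46 as reported, numbered 48 after a second quantile normalization, 46 after cyclic loess, 50 with array weights, 49 with a variance trend and robust eBayes, 49 of 55 above background, 45 with averaged probe sets, and 10 to 38 with 1 array left out. The share of all genes called lower was 3.97% as reported, 3.68% after quantile normalization and 3.53% after cyclic loess. It was 9.10% with array weights, 6.55% with the variance trend and 3.93% with averaged probe sets. Of genes above background, tested alone, 9.37% were called lower. With 1 array left out the share was 0.401% to 2.63%. Genes called in all, 1457 as reported, numbered 3418 with array weights, where WT replicate 3 had a weight of 7.41 and the others 0.524 to 1.19, 2275 with the variance trend, 2192 above background, and 189 to 932 with 1 array left out; the cause was not tested. The split of all calls was 791 lower and 666 higher as reported, 734 and 818 after quantile normalization, and 703 and 830 after cyclic loess. With the replicate number as a block 52 genes were called and 1 member, Smc2; this fit has fewer residual degrees of freedom. Same-numbered WT and KO arrays deviated from their group means with correlations of -0.299, -0.262 and -0.0151. With 3 arrays a group, such correlations cannot decide whether the numbers pair the samples, and the labels do not say. Signal over background limits Cenpk, Kif14, Kif15 and Kif20b, which lay near it, and 3 arrays a group leave calls near the threshold open to 1 array.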
